A study of Mus musculus with 12 samples.

Results

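Livers of mice given fenofibrate on a high-fat diet were compared with livers of mice on a normal diet, to describe what still differed from normal diet livers after treatment. The comparison took 8 of the 12 libraries of the series, chosen by their labels: 4 of HFD mice treated with fenofibrate and 4 of Control mice. Control mice had the normal diet throughout, for 14 weeks. The treated mice ate a high-fat diet (HFD) for 14 weeks and received fenofibrate by gavage during the last 4 weeks, after 10 weeks on the diet alone. The 4 libraries of mice that ate the high-fat diet for 14 weeks without the drug are set beside them as a level, and they entered the model only to share its estimate of spread. The study assigned 10 mice to each group, and no label used here states strain, sex or age. The treated group differs from Control in both diet and drug, so the effect of the drug and that of the diet cannot be told apart in this comparison. The labels do not say whether each library is a separate mouse or how cages and sequencing runs were shared, so p-values measure only the spread between these libraries.

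Fenofibrate is a lipid-lowering drug whose acid form activates PPARA, a nuclear receptor of hepatocytes. With its partner RXR, PPARA binds response elements near genes of fatty acid uptake, peroxisomal and mitochondrial beta-oxidation, ketone body synthesis and lipoprotein handling, and in rodent liver it is known as the main receptor through which fibrates raise those genes. The hepatocyte also carries the enzymes of drug clearance, many of them under the receptors CAR (Nr1i3) and PXR, and a circadian clock whose output genes follow feeding.

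Total counts ran from 15797016 to 18514481 per library, and 13477 genes were tested. Levels are CPM, the count scaled to a common library size, after TMM scaling, a correction for library composition, and each group mean is given ± SD with n = 4 libraries. Changes are log2 values of fenofibrate minus Control ± SE, the SE being taken from the F statistic. A gene is said to differ where the adjusted p of edgeR's quasi-likelihood test was under 0.05 over all genes tested. All 13 hepatocyte markers were listed, among them Alb at 97190 to 117500 CPM in Control and 68170 to 92900 CPM with fenofibrate, while Trf, another hepatocyte marker, stood at only 12.9 to 25.1 CPM in all 12 libraries. Summed hepatocyte markers, Cyp3a11 included, were 149400 to 180500 CPM in Control and 108400 to 142400 CPM with fenofibrate. Pancreatic acinar markers (13 of 14 listed) reached a sum of 2022 CPM in fenofibrate library 1, with 7.79 to 14.0 CPM in the other fenofibrate libraries, against 6.27 to 10.6 CPM in Control and 20.4 to 30.1 CPM in HFD, and Prss2 and Pnlip were at 0 in every library but that one. Striated muscle markers (11 of 12 listed) reached 296 CPM in that library, were also high in fenofibrate library 3, and were at most 1.21 CPM in any other library, with Ckm and Myh4 at 0 there.

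**Figure D1:**
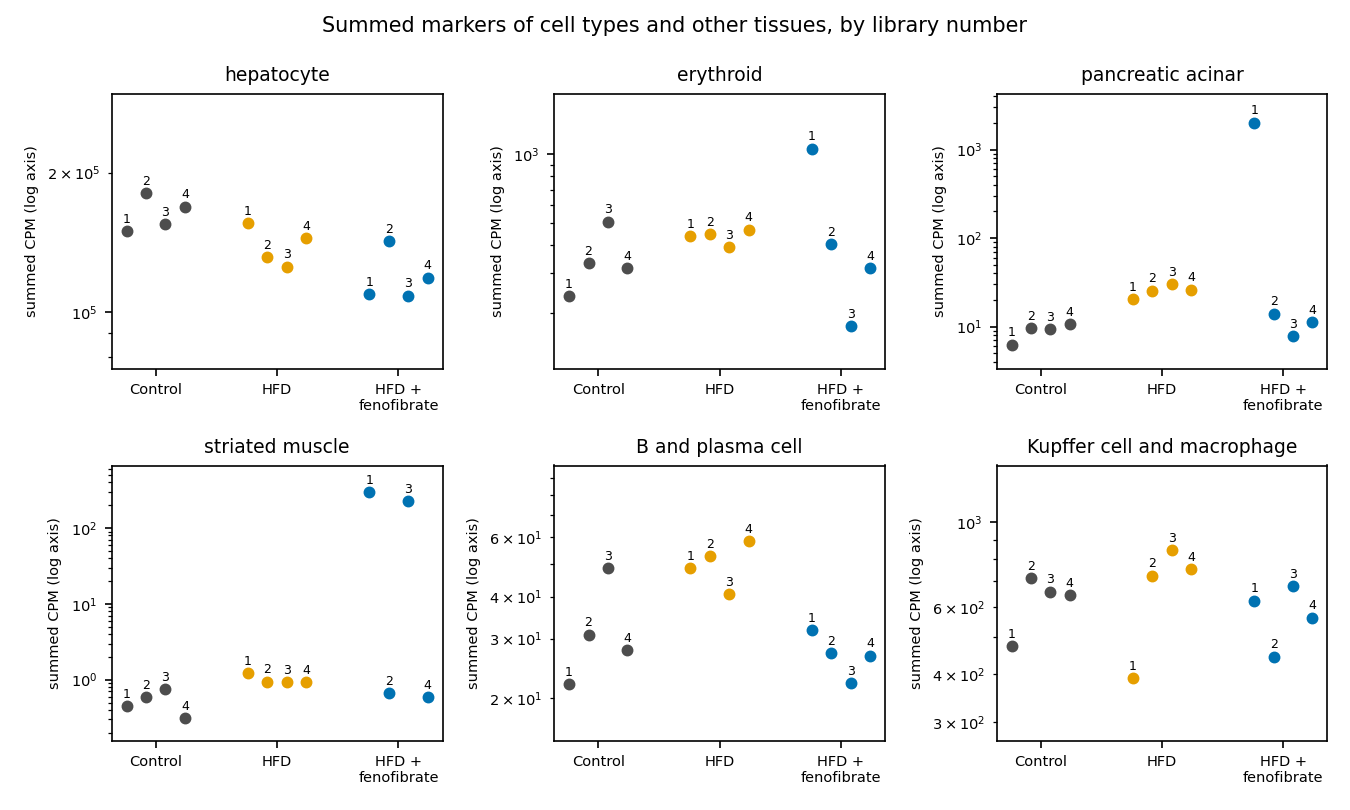
Summed CPM (log axes) of 6 marker lists in each library, numbered within its group (Control grey, HFD orange, HFD plus fenofibrate blue). Pancreatic acinar markers reached 2022 CPM in fenofibrate library 1, muscle markers reached 296 CPM and were high in fenofibrate libraries 1 and 3 alone, and hepatocyte markers were 108400 to 142400 CPM with fenofibrate against 149400 to 180500 CPM in Control.

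After treatment, many drug-clearance enzymes and circadian clock genes still differed from normal diet livers. The P450 gene Cyp3a11 stood 6.76-fold lower with fenofibrate than in Control, and 17 of 24 genes of drug conjugation and hydrolysis were lower and 0 higher. The clock genes Dbp and Nr1d1 were higher and Arntl was lower. Fatty acid uptake genes such as Cd36, Slc27a1 and Vldlr were higher, the lipid droplet gene Plin2 was lower, and well-known PPARA targets such as Cpt1a and Cyp4a10 did not pass the test. In all, 655 genes were higher (4.86% of those tested) and 581 were lower (4.31%), of which 150 and 166 differed at least 2-fold. The counts of list members below are to be read beside these shares, and a count near them does not set a list apart. Without fenofibrate libraries 1 and 3, which held muscle transcripts and, in library 1, pancreatic ones, 215 were higher and 158 lower. The count of higher genes was 383 without Control library 2, 414 without Control library 4 and 407 without fenofibrate library 3. That of lower genes was 385 without Control library 2, 336 without fenofibrate library 1, 310 without fenofibrate library 3 and 381 without fenofibrate library 4. When libraries were scaled by total counts alone, 2119 genes were higher and 298 lower, so that 87.7% of calls were higher against 53% with TMM scaling, and the median change of all genes was 0.20 in place of -0.01. Bulk libraries cannot tell fewer cells of a type from less RNA per cell.

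**Figure D2:**
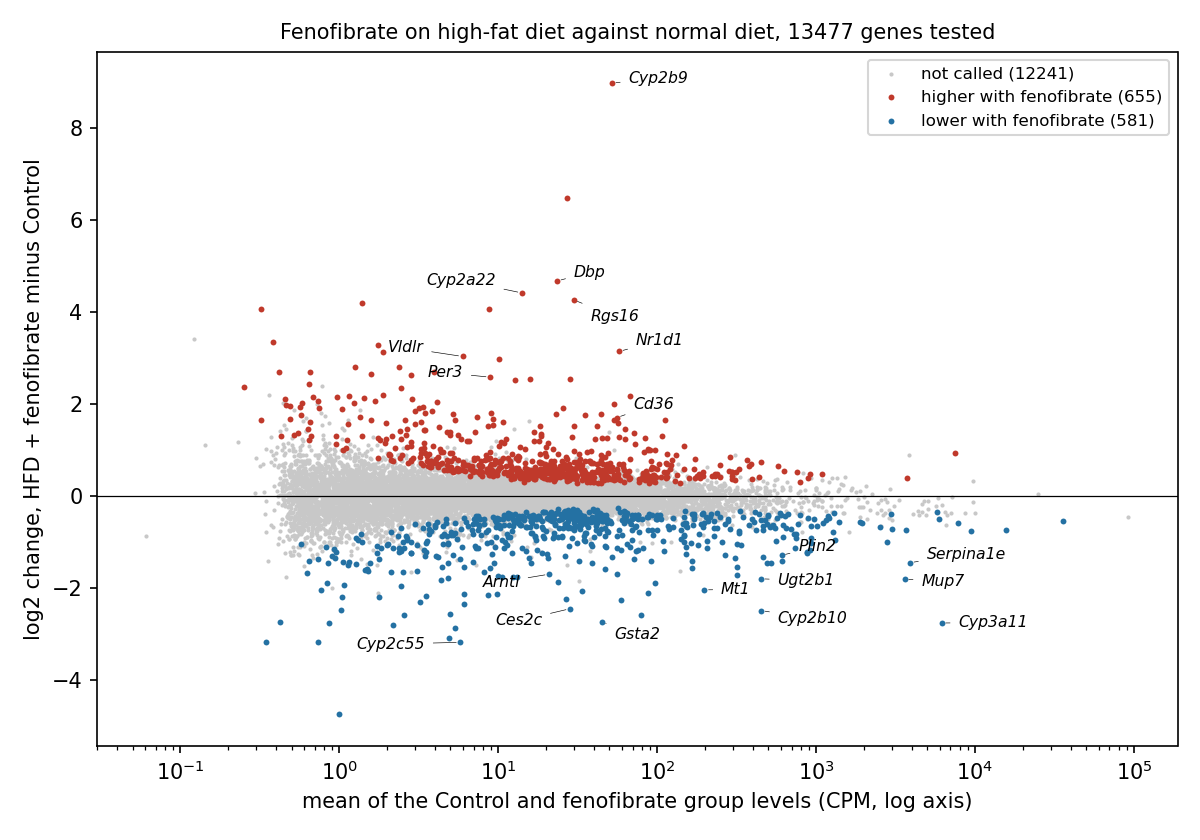
Log2 change (fenofibrate minus Control) of each of the 13477 genes tested against the mean of both group levels (CPM, log axis), with 655 higher genes in red and 581 lower genes in blue. Cyp2b9 had the largest rise (8.97), and Cyp3a11 (-2.76) stands apart among lower genes of high level.

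Among genes whose higher group averaged at least 10 CPM, with no overlap between the 4 fenofibrate and 4 Control libraries, the largest rises were in Cyp2b9 (8.97 ± 0.87), Dbp (4.67 ± 0.53), Cyp2a22 (4.41 ± 0.39), Rgs16 (4.26 ± 0.61), Rad51b (4.06 ± 0.44), Nr1d1 (3.14 ± 0.21), Vldlr (3.03 ± 0.35), Tpm2 (2.97 ± 0.56), Per3 (2.58 ± 0.38), Klhdc7a (2.54 ± 0.19), Zbtb16 (2.51 ± 0.51) and Lpin1 (2.17 ± 0.61). By the same limits the largest falls were in Cyp2c55 (-3.18 ± 0.20), Cyp3a11 (-2.76 ± 0.18), Gsta2 (-2.74 ± 0.26), Ces2c (-2.45 ± 0.27), Mup1 (-2.26 ± 0.35), Ugt1a9 (-2.23 ± 0.18), Cib3 (-2.16 ± 0.42), Mup12 (-2.11 ± 0.33), Acmsd (-2.06 ± 0.22), Mt1 (-2.04 ± 0.28), Selenbp2 (-1.90 ± 0.46) and Gstm3 (-1.88 ± 0.30). Adjusted p for them lay between 4.4e-07 (Nr1d1, Cyp2c55 and Cyp3a11) and 0.0358 (Lpin1). These genes were picked for having no overlap, so the separation of their libraries, here and below, is no further support. Of all 13477 genes tested, 928 lay above Control without overlap and 844 below. The call of Lpin1 was lost without Control library 2, 3 or 4 or fenofibrate library 2, 3 or 4, and that of Selenbp2 without Control library 3 or fenofibrate library 3 or 4. Tpm2, a tropomyosin gene also expressed in muscle, was at 33.5 and 27.5 CPM in fenofibrate libraries 1 and 3 and at 5.52 and 5.77 CPM in libraries 2 and 4. Without libraries 1 and 3 the change of Tpm2 was 1.3 and its adjusted p 0.0785. Lpin1 (2.57, adjusted p = 0.0696) and Selenbp2 (-1.49, adjusted p = 0.16) also missed the threshold without them, with changes that moved less than that of Tpm2.

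Many cytochrome P450s of drug clearance were lower after treatment. Of 24 P450 and receptor genes tested, 12 were lower and 3 higher, with a median change of -0.64 against -0.01 over all genes. With any 1 library left out, 9 to 12 were lower, and 6 were lower without fenofibrate libraries 1 and 3. The median with total-count scaling was -0.45.

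Cyp3a11 (ENSMUSG00000056035, GRCm38 chromosome 5, 145854426 to 145879964, minus strand), the main drug-oxidizing P450 of its family in mouse liver and a target of PXR, stood at 9681, 11530, 11560 and 10200 CPM in the Control libraries. In the fenofibrate libraries it was at 1435, 2160, 1610 and 1157 CPM, and in HFD without the drug at 2048, 1662, 1865 and 1453 CPM. The lowest Control library was above the highest treated one by more than the whole range within either group, and the HFD and fenofibrate libraries overlapped. The change was -2.76 ± 0.18 against Control (adjusted p = 4.4e-07) and -0.14 against HFD (adjusted p = 0.59). The comparisons with Control and with HFD share libraries, here and wherever both are given.

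Cyp2c55 (ENSMUSG00000025002, chromosome 19, 39007019 to 39042693), a P450 of arachidonic acid and drug oxidation, was at 9.12, 8.63, 14.2 and 9.71 CPM in Control and at 1.24, 0.90, 1.17 and 1.23 CPM with fenofibrate. HFD libraries held 4.97 to 6.18 CPM, so the 3 groups did not overlap and the treated livers were farthest from Control (-3.18 ± 0.20, adjusted p = 4.4e-07, and -2.27 against HFD, adjusted p = 3.4e-05). Cyp2c29, another Cyp2c enzyme of the hepatocyte, stood at 3720 ± 681 CPM in Control, 4282 ± 459 in HFD and 1873 ± 311 with fenofibrate (-0.99 ± 0.15, adjusted p = 0.00097), lower in treated livers than in either other group. Cyp2f2, an enzyme of periportal hepatocytes, went from 972 ± 140 CPM in Control to 514 ± 49.4 with fenofibrate (-0.92 ± 0.13, adjusted p = 0.00052). Cyp2c50 (-0.95), Cyp3a25 (-0.79) and the phenobarbital-inducible Cyp2b10 (-2.49), named after their values were seen, were lower as well. Without fenofibrate libraries 1 and 3 Cyp2b10 missed the threshold at a change of similar size (-2.59, adjusted p = 0.0627).

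Other P450s were higher after treatment. Cyp2b9 (ENSMUSG00000040660, chromosome 7, 26173411 to 26210661), a P450 known for its low level in male mouse liver, was at 0.112, 0.0648, 0.124 and 0.498 CPM in Control, 13 reads in all, and at 110, 63.0, 111 and 130 CPM with fenofibrate. HFD libraries ran from 2.43 to 36.8 CPM, above every Control library and below every treated one. The fitted change was 8.97 ± 0.87 (adjusted p = 3e-05) and 9.90 without Control library 4. Cyp2a22 (ENSMUSG00000091867, chromosome 7, 26931631 to 26939384), a member of the steroid-oxidizing Cyp2a family, was at 0.895, 1.04, 1.62 and 1.49 CPM in Control and at 24.1, 19.9, 32.2 and 31.4 CPM with fenofibrate (4.41 ± 0.39, adjusted p = 1.6e-05). No treated library of this gene came near any Control library, and HFD libraries lay between (1.65 to 8.29 CPM). Of the receptors, CAR (Nr1i3, 0.57, adjusted p = 0.00505) and the aryl hydrocarbon receptor Ahr (0.58, adjusted p = 0.00217), named after their values were seen, were higher than in Control. Reads of the Cyp2b, Cyp2c, Cyp2a and Cyp3a genes can be split between close copies, so the share of each copy is uncertain.

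Conjugation and hydrolysis enzymes, which make drugs and bilirubin water-soluble, were lower over most of the list. Of 24 tested, 17 were lower and 0 higher, and 23 had a negative change, with a median of -0.74 (-0.54 with total-count scaling). By edgeR 1 was higher and 20 lower at an unadjusted p under 0.05, DESeq2 called 1 higher and 19 lower, and limma-voom 0 and 17. With 1 library left out 12 to 18 were lower, at most 1 was higher (without Control library 1, HFD library 1 or 4, or fenofibrate library 2), and 9 were lower without fenofibrate libraries 1 and 3.

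Gsta2 (ENSMUSG00000057933, chromosome 9, 78331018 to 78355788), a glutathione S-transferase, stood at 74.3, 76.9, 87.1 and 73.2 CPM in Control and at 13.7, 16.6, 9.05 and 7.44 CPM with fenofibrate. HFD libraries held 7.62 to 18.5 CPM, spanning the treated values and far below Control (-2.74 ± 0.26, adjusted p = 2.8e-05). Ugt1a9 (ENSMUSG00000090175, chromosome 1, 88070800 to 88218997), a glucuronosyltransferase, was at 40.1 to 50.1 CPM in Control, 4.24 to 8.49 CPM in HFD and 6.80 to 10.3 CPM with fenofibrate (-2.23 ± 0.18, adjusted p = 4.8e-06). The carboxylesterase gene Ces2a was at 715 ± 40.2 CPM in Control, 344 ± 23.9 in HFD and 261 ± 61.2 with fenofibrate (-1.45 ± 0.14, adjusted p = 2.8e-05). For these 3 genes the HFD and fenofibrate levels lay on the same side of Control.

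Ces2c (ENSMUSG00000061825, chromosome 8, 104847068 to 104854483), a carboxylesterase of the same cluster, behaved differently. It was at 44.1, 33.5, 78.1 and 35.4 CPM in Control, 20.2 to 41.9 CPM in HFD and 8.598, 8.16, 7.15 and 11.1 CPM with fenofibrate. HFD and Control libraries overlapped, and every treated library was below both (-2.45 ± 0.27, adjusted p = 9.3e-05, and -1.81 against HFD, adjusted p = 0.0012). Ugt2b1, a glucuronosyltransferase of bile acids and steroids, showed the same order, at 697 ± 89.0 CPM in Control, 586 ± 103 in HFD and 200.9 ± 95 with fenofibrate (-1.80 ± 0.27, adjusted p = 0.00096). Acmsd, an enzyme of tryptophan breakdown outside this list, was at 54.4 ± 13.3 CPM in Control, 9.16 ± 1.69 in HFD and 13.1 ± 4.80 with fenofibrate (-2.06 ± 0.22, adjusted p = 9.3e-05). Gsta, Gstm, Ugt1a, Ugt2b and Ces2 genes have close copies or shared exons, and their shares of reads are uncertain. Summed hepatocyte markers, a list that itself holds Cyp3a11, were lower in treated livers. Of its 13 genes 0 were higher and 1, Cyp3a11, was lower, while DESeq2 called 5 lower and limma-voom 2. All 13 changes were negative, with a median of -0.31 (-0.09 with total-count scaling). The part of hepatocyte markers in the lists of drug clearance was not tested.

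**Figure D3:**
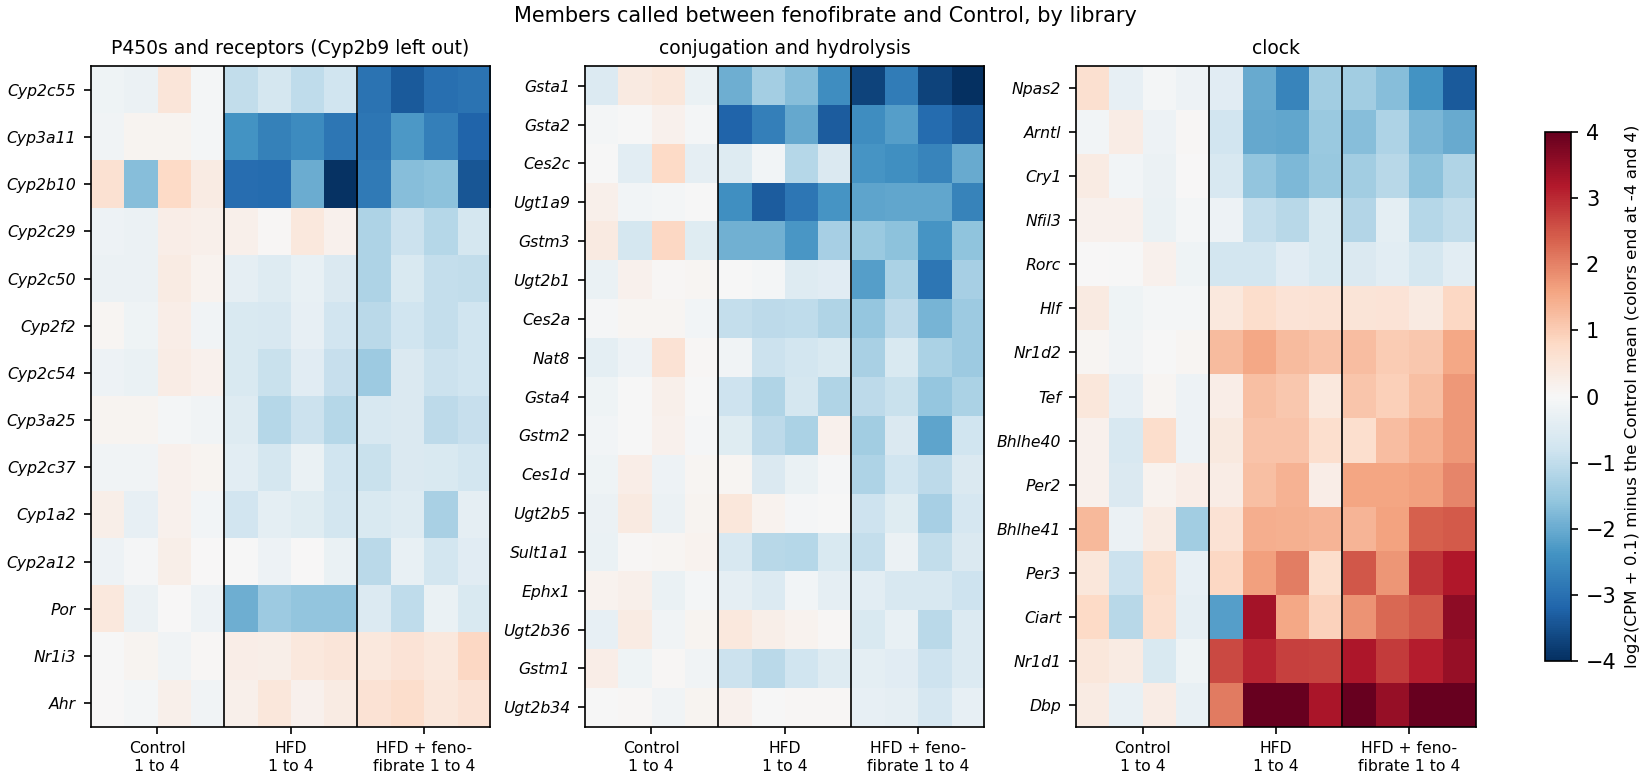
Log2(CPM + 0.1) minus the Control mean, by library, for members that differed between fenofibrate and Control in 3 lists: P450s and receptors (Cyp2b9 left out), conjugation and hydrolysis, and the clock. Colours end at -4 and 4. Fenofibrate columns are blue for all 17 conjugation genes, and 10 clock genes are red and 5 blue.

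Of the pathway lists, the circadian clock had the largest share of higher genes, before any library was left out. In the liver clock, CLOCK or NPAS2 pairs with BMAL1 (Arntl) on E-box sequences and drives Per, Cry, Nr1d1, Nr1d2, Dbp and Tef, and the products of Nr1d1 and Nr1d2 in turn repress Arntl, Npas2, Cry1 and Nfil3. DBP, TEF and HLF bind D-box sequences, for example in Per3. Of 19 clock genes tested, 10 were higher and 5 lower, with a median change of 0.68 (0.88 with total-count scaling). With 1 library left out 8 to 11 were higher and 5 or 6 lower, and 8 and 3 without fenofibrate libraries 1 and 3. No source used here states the time of day at which livers were taken.

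The promoters of 4 of these genes are shown because they hold the E-box or D-box that clock factors are known to bind. Each run is the 250 bases before a RefSeq start site of GRCm38.p6, 5′ to 3′ on the strand of the gene, with the E-box (cacgtg) or the D-box (ttatgtaa) in capitals. Per3, Ciart and Tef were higher with fenofibrate, and Cry1 was lower. Ciart, Tef and Cry1 were chosen after their values were seen. The positions are chr4:151044666-151044915 (minus strand) for Per3, chr3:95882229-95882478 (minus strand) for Ciart, chr15:81802423-81802672 (plus strand) for Tef and chr10:85185055-85185304 (minus strand) for Cry1.
Per3: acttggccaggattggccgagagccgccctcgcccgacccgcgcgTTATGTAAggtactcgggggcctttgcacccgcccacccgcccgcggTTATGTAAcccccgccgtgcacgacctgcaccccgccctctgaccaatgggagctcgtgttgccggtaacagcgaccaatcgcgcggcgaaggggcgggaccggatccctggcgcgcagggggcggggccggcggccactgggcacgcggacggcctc
Ciart: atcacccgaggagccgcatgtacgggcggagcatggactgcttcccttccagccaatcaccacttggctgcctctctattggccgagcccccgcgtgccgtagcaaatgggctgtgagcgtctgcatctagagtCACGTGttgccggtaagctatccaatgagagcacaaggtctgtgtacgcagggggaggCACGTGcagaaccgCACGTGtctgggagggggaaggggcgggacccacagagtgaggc
Tef: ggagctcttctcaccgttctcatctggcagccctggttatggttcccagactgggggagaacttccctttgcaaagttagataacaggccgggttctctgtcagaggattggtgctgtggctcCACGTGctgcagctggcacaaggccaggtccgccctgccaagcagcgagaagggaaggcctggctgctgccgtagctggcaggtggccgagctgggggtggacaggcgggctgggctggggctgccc
Cry1: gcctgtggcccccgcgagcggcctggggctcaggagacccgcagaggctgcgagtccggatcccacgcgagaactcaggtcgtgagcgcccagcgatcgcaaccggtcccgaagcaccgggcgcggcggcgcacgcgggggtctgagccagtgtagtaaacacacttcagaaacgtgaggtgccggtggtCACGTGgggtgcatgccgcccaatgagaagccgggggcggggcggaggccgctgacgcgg

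The D-boxes of Per3 lay 205 and 158 bases before the start, the E-boxes of Ciart 116, 58 and 44 bases before it, that of Tef 127 and that of Cry1 60. A second Tef start site, not shown, has an E-box 138 bases before it. With both strands searched, E-boxes were in 4 of 9 promoters of the higher clock genes (44.4%, 8 of 10 genes matched), which come from 3 genes since Tef counts with both of its start sites beside Ciart and Bhlhe41, and in 1 of 5 promoters of the lower ones (20%, 4 of 5 genes matched). The motif was in 6.02% of all 32851 promoters and in 8.16% of those of the genes tested. Over all higher genes it was in 9.27% of promoters, and over all lower genes in 7.42%. The D-box was in 0.819% of all promoters, 0.493% of those of the genes tested, 0.571% of those of higher genes and 0.928% of those of lower genes. It was in 1 of 9 promoters of the higher clock genes (11.1%) and in 0 of 5 of the lower ones. A match is a description of the sequence only.

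Dbp (ENSMUSG00000059824, chromosome 7, 45705088 to 45710203), a clock output factor that binds D-boxes, stood at 2.18, 1.36, 2.11 and 1.37 CPM in Control and at 33.8, 20.3, 38.2 and 88.1 CPM with fenofibrate. Every treated library was far above every Control library, and HFD libraries (7.63 to 36.5 CPM) overlapped the treated ones (4.67 ± 0.53, adjusted p = 0.00013). Nr1d1 (ENSMUSG00000020889, chromosome 11, 98767932 to 98775333), which encodes the repressor REV-ERB alpha, was at 15.4, 14.1, 7.34 and 9.95 CPM in Control and at 106, 78.8, 101 and 128 CPM with fenofibrate. HFD libraries held 70.9 to 93.1 CPM, again overlapping the treated ones (3.14 ± 0.21, adjusted p = 4.4e-07). Its relative Nr1d2 was at 24.3 ± 1.76 CPM in Control and 56.9 ± 10.1 with fenofibrate (1.23 ± 0.13, adjusted p = 5e-05).

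Arntl (ENSMUSG00000055116, chromosome 7, 113207465 to 113314126), the target of these repressors, was at 29.3, 38.5, 27.3 and 32.5 CPM in Control and at 9.59, 13.3, 8.81 and 7.74 CPM with fenofibrate (-1.70 ± 0.24, adjusted p = 0.00073). Per3 (ENSMUSG00000028957, chromosome 4, 151003652 to 151044665), a Period gene whose promoter is shown above, was at 3.19, 1.23, 3.92 and 1.80 CPM in Control, 3.78 to 9.88 CPM in HFD and 13.4, 8.04, 17.5 and 22.03 CPM with fenofibrate (2.58 ± 0.38, adjusted p = 0.00083). Neither gene overlapped between Control and treated livers. Arntl had similar levels in HFD (11.2 ± 5.16 CPM) and treated livers, whereas Per3 was higher with fenofibrate than in HFD as well (1.27, adjusted p = 0.0272).

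Further clock genes, named after their values were seen, had calls on both sides. Per2 (1.68 ± 0.25, adjusted p = 0.00083), Tef (1.25 ± 0.23, adjusted p = 0.00312) and Bhlhe40 (1.25, adjusted p = 0.00815) were higher. Cry1 (-1.35 ± 0.21, adjusted p = 0.00114) and Npas2, the partner of BMAL1 (-2.18 ± 0.44, adjusted p = 0.00614), were lower. Ciart (2.62 ± 0.75, adjusted p = 0.0396) was at 0.777 ± 0.472 CPM in Control and 4.86 ± 2.85 with fenofibrate, and its call was lost without Control library 2, 3 or 4 or fenofibrate library 3 or 4, and without fenofibrate libraries 1 and 3 (3.02, adjusted p = 0.0763). Clock itself (-0.43, adjusted p = 0.0759), Per1 (0.68, adjusted p = 0.433) and Cry2 (0.42, adjusted p = 0.0677) did not pass the test.

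Some genes of fatty acid uptake were higher in treated livers than in normal diet livers. Of 21 genes of fatty acid uptake, binding and activation, 7 were higher and 1 lower, with 5 to 7 higher when any 1 library was left out and 4 higher without fenofibrate libraries 1 and 3, while 2 were lower without fenofibrate library 1. The other 13 did not pass the test, and the median change of the list was 0.10, with 12 changes positive and 9 negative.

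Cd36 (ENSMUSG00000002944, chromosome 5, 17781690 to 17888801), a fatty acid transporter of the cell surface, was at 26.7, 25.1, 25.2 and 27.4 CPM in Control and at 86.0, 71.99, 83.8 and 97.9 CPM with fenofibrate. HFD libraries ran from 24.1 to 66.3 CPM, below every treated library (1.70 ± 0.22 against Control, adjusted p = 0.00032, and 0.75 against HFD, adjusted p = 0.0298). Slc27a1 (ENSMUSG00000031808, chromosome 8, 71568882 to 71587302), a fatty acid transport protein known chiefly from muscle and fat, was at 16.8, 14.3, 18.5 and 14.7 CPM in Control and at 51.3, 32.99, 87.3 and 46.0 CPM with fenofibrate (1.76 ± 0.22, adjusted p = 0.00031). HFD stood at 14.4 ± 1.86 CPM, near Control. Without fenofibrate libraries 1 and 3, where muscle markers were high, its adjusted p was 0.00078.

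Vldlr (ENSMUSG00000024924, chromosome 19, 27216484 to 27254231), the receptor for very low density lipoprotein, was at 1.62, 1.82, 0.560 and 1.18 CPM in Control and at 11.6, 7.08, 12.6 and 11.3 CPM with fenofibrate. HFD libraries held 1.36 to 4.24 CPM, so that treated livers stood above both other groups (3.03 ± 0.35, adjusted p = 0.00013, and 2.23 against HFD, adjusted p = 0.00112). Lpl, which releases fatty acids from circulating triglyceride, was at 20.3, 27.0, 35.8 and 22.2 CPM in Control and at 76.4, 39.5, 97.2 and 38.4 CPM with fenofibrate (1.26 ± 0.26, adjusted p = 0.00734). Its highest values were in fenofibrate libraries 1 and 3, and without them the change was 0.58 (adjusted p = 0.137). The liver-specific transporter Slc27a5, which also activates bile acids, was the member that fell (-0.53 ± 0.11, adjusted p = 0.00625, and -0.36, adjusted p = 0.113, without those libraries).

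**Figure D4:**
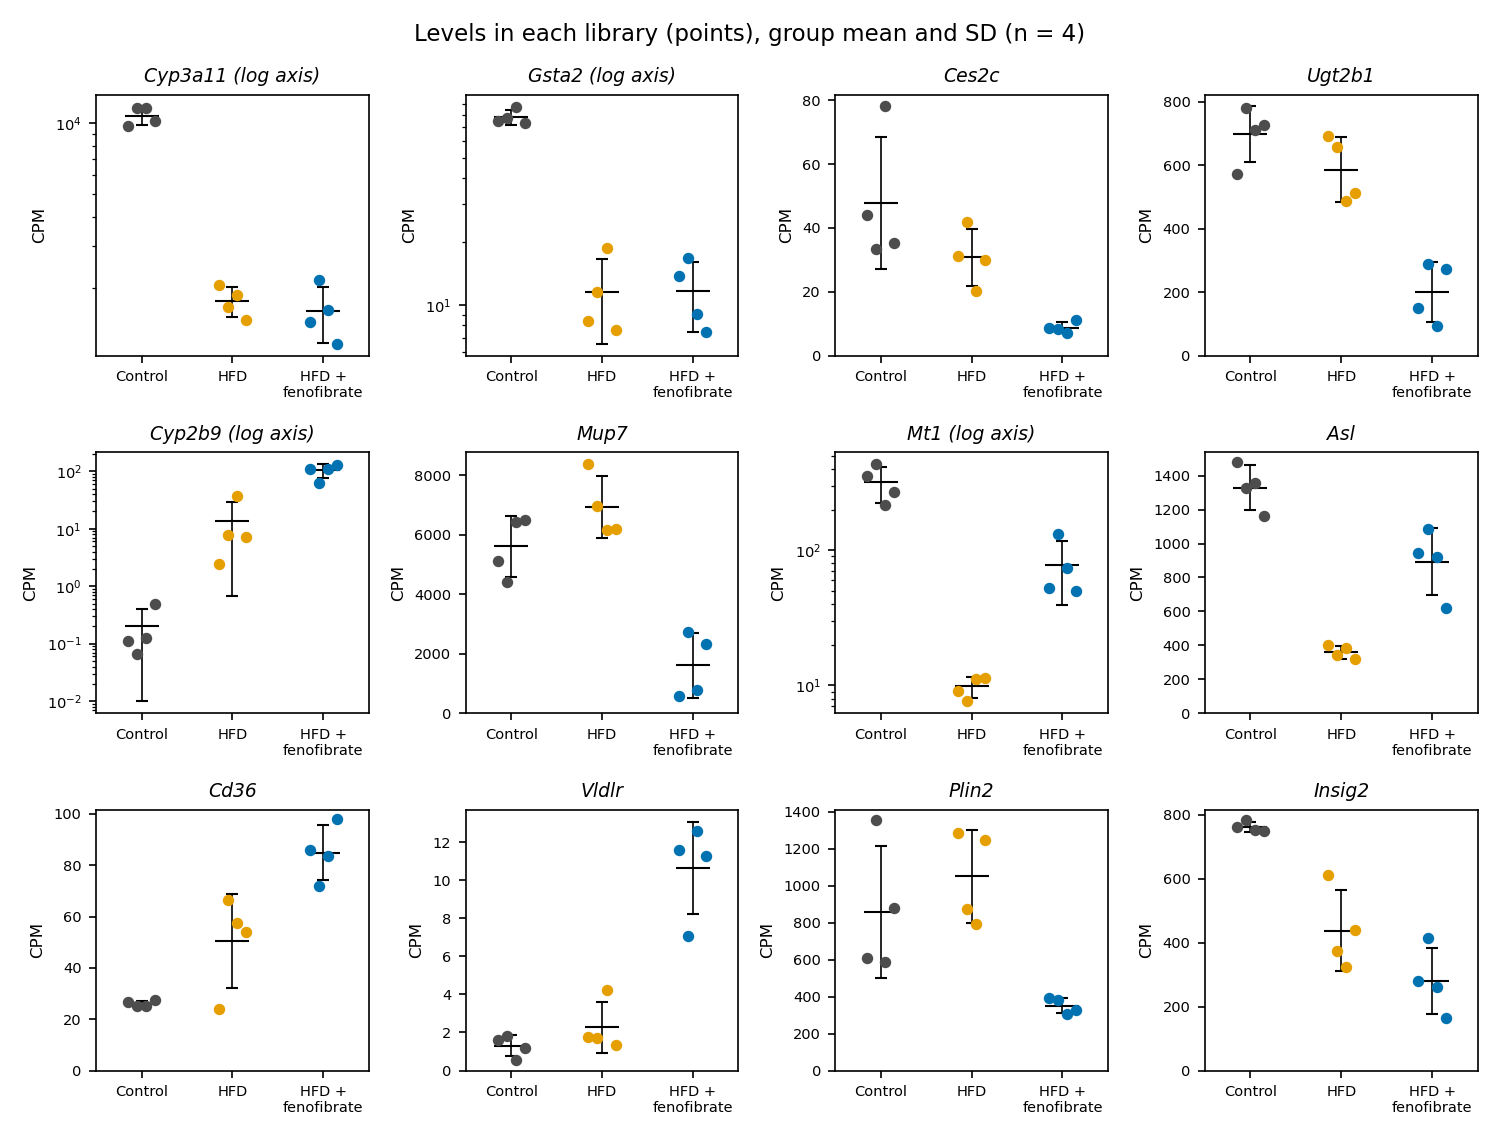
CPM of 12 genes in each library of the 3 groups (log axes where labelled), with group mean and SD. Cyp3a11 and Gsta2 stood away from Control in both HFD and fenofibrate libraries, whereas Vldlr was at 7.08 to 12.6 CPM and Mup7 at 577 to 2715 CPM with fenofibrate, away from both other groups.

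Some genes of fatty acid oxidation were higher by modest amounts. Of 24 genes of mitochondrial beta-oxidation and ketogenesis 7 were higher and 1 lower, but 4 were higher without Control library 3 or 4 or fenofibrate library 3 or 4, and 2 without fenofibrate libraries 1 and 3 together, and 2 were lower without Control library 3. Hadh, an enzyme of the beta-oxidation spiral, stood at 257 ± 12.6 CPM in Control, 387 ± 29.2 in HFD and 370 ± 21.8 with fenofibrate (0.52 ± 0.09, adjusted p = 0.00228). Bdh1, which interconverts ketone bodies, was at 127 ± 24.3, 305 ± 20.4 and 221 ± 31.6 CPM in the same order (0.80 ± 0.14, adjusted p = 0.00216). Both were higher than Control with and without the drug.

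Peroxisomal beta-oxidation had 3 of 24 genes higher (12.5%, against 4.86% over all genes) and 1 lower (4.17%, near the 4.31% over all genes). Without fenofibrate libraries 1 and 3 the counts were 1 and 0. The lower call was lost without any of Control libraries 2, 3 or 4 or fenofibrate library 1 or 3, and 2 were lower without Control library 1. Abcd2, a peroxisomal transporter of very long chain fatty acids, stood at 15.6 ± 5.67 CPM in Control, 26.0 ± 6.84 in HFD and 44.5 ± 11.5 with fenofibrate (1.51 ± 0.26, adjusted p = 0.00191). Aldh3a2, a fatty aldehyde dehydrogenase, was at 299 ± 68.8 CPM in Control and 485 ± 60.3 with fenofibrate (0.70 ± 0.15, adjusted p = 0.00794).

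Several well-known PPARA targets did not pass the test. Ppara itself was at 40.9 ± 10.8 CPM in Control and 50.1 ± 6.21 with fenofibrate (0.29, 95% interval -0.08 to 0.66, adjusted p = 0.322). The carnitine transferase gene Cpt1a was at 507 ± 62.4 and 515 ± 77.0 CPM (0.02, -0.24 to 0.28, adjusted p = 0.94). The intervals of both genes exclude a 2-fold difference in either direction.

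The omega-hydroxylase gene Cyp4a10 was at 1574 ± 475 and 1768 ± 183 CPM (0.17, -0.30 to 0.64, adjusted p = 0.685), an interval that also excludes 2-fold. Cyp4a14 was at 1962, 5463, 1028 and 2344 CPM in Control and at 4739, 4961, 5357 and 4862 CPM with fenofibrate (0.88, 0.05 to 1.72, adjusted p = 0.178). Control library 2 stood above every treated library, and without it, or with total-count scaling, Cyp4a14 passed the test. The same Control library held the highest Ehhadh (2030 CPM), Acot1 (314 CPM), Pdk4 (111 CPM) and Plin2 (1358 CPM) of its group. Ehhadh, the peroxisomal bifunctional enzyme, had an interval of -1.53 to -0.03 (adjusted p = 0.187), and Pdk4, a brake on pyruvate oxidation, one of -3.13 to -0.55 (adjusted p = 0.0718). Fgf21, a hormone made in the fasting liver, was at 5.93 CPM in Control and 4.43 with fenofibrate (-0.42, adjusted p = 0.687). Of 11 genes of microsomal omega-oxidation 2 were higher and 2 lower (18.2% each), with 0 lower without Control library 3 or fenofibrate library 1 or 4. Cyp4a31 was higher (1.66, adjusted p = 0.0141), a call lost without fenofibrate libraries 1 and 3 (1.11, adjusted p = 0.171). Cyp4a32 (-0.73, adjusted p = 0.0276) and Cyp4f15 (-0.4, adjusted p = 0.0264) were lower, and both calls were lost with total-count scaling. The Cyp4a genes are close copies, and their shares of reads are uncertain.

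Of 17 other PPARA targets 3 were higher and 2 lower. Vnn1, a pantetheinase, was at 27.4, 50.1, 19.3 and 38.8 CPM in Control and at 99.9, 72.2, 71.1 and 126 CPM with fenofibrate (1.45 ± 0.27, adjusted p = 0.00354). It was lower than in HFD, where it stood at 145 to 253 CPM (-1.0 on the log2 scale, adjusted p = 0.0219). Angptl4, an inhibitor of lipoprotein lipase, was at 282 ± 49.6 CPM in Control, 275 ± 48.0 in HFD and 128 ± 40.9 with fenofibrate, below both (-1.14 ± 0.21, adjusted p = 0.00376).

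Plin2 (ENSMUSG00000028494, chromosome 4, 86648386 to 86670060), the main lipid droplet coat protein of hepatocytes, was at 609, 1358, 589 and 882 CPM in Control and at 391.7, 383, 305 and 328 CPM with fenofibrate. No treated library reached the lowest Control or HFD library (-1.29 ± 0.24, adjusted p = 0.00339, and -1.58 against HFD, adjusted p = 0.00139). Of 18 lipid droplet genes 4 were higher and 5 lower. With 1 library left out 2 were higher without Control library 3 or 4 or fenofibrate library 1 or 3, and 2 were lower without Control library 2 or fenofibrate library 1, 3 or 4 and 3 without Control library 4. Without fenofibrate libraries 1 and 3 0 were higher and 1 lower. The list's median was -0.10, and 0.12 with total-count scaling.

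Among 25 genes of lipogenesis and triglyceride synthesis 6 were higher and 3 lower, 3 higher without fenofibrate library 4, and 3 higher and 2 lower without fenofibrate libraries 1 and 3. Dgat2, which makes triglyceride, stood at 338 ± 42.1 CPM in Control, 468 ± 72.7 in HFD and 561 ± 109 with fenofibrate (0.73 ± 0.15, adjusted p = 0.00608). Mogat1, another acyltransferase of triglyceride synthesis, was at 0.139 ± 0.0944 CPM in Control, 9 reads in all, and 2.64 ± 1.32 with fenofibrate (4.20 ± 0.51, adjusted p = 0.00024). The lipogenic factor Srebf1 was at 61.2 ± 21.5 and 152 ± 41.2 CPM (1.31 ± 0.27, adjusted p = 0.00634), and without fenofibrate libraries 1 and 3 the change was 1.2 (adjusted p = 0.0646). Fasn, the fatty acid synthase, had a change of 0.90 (adjusted p = 0.0157) that missed the threshold without fenofibrate library 3 or 4 and, at a change of 0.77, without libraries 1 and 3 together (adjusted p = 0.16).

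Insig2 (ENSMUSG00000003721, chromosome 1, 121304353 to 121332589), which holds the SREBP precursor in the endoplasmic reticulum, was at 763, 785, 752 and 750.1 CPM in Control and at 279, 415, 262 and 164 CPM with fenofibrate. Control libraries were close to each other, and no treated library came near them (-1.45 ± 0.23, adjusted p = 0.00126). HFD stood between, at 438 ± 126 CPM. Cholesterol synthesis had 2 of 24 genes higher (8.33%, against 4.86% over all genes) and 1 lower (4.17%, near the 4.31% over all genes). It had 1 higher without Control library 2 or 4 or fenofibrate library 3 or 4. Fdft1, squalene synthase, was at 54.2 ± 5.63 CPM in Control and 79.3 ± 14.5 with fenofibrate (0.55 ± 0.12, adjusted p = 0.0121).

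Lipoprotein genes had calls on both sides. Of 27 tested, 5 were higher and 4 lower, 3 higher without Control library 2, 3 or 4 or fenofibrate library 1 or 3, and 2 lower without Control library 2 or fenofibrate library 1 or 3. Apoa5, an activator of triglyceride clearance, stood at 1236 ± 133 CPM in Control, 920.2 ± 57.2 in HFD and 788 ± 39.96 with fenofibrate (-0.65 ± 0.10, adjusted p = 0.00107). The fibrate-associated genes Apoa1 (-0.13, adjusted p = 0.666), Apoa2 (-0.28, adjusted p = 0.32) and Apoc3 (-0.21, adjusted p = 0.36) did not pass the test. In bile acid handling, Slco1a4, an organic anion transporter, was at 241 ± 52.0 CPM in Control, 46.9 ± 12.2 in HFD and 90.1 ± 37.4 with fenofibrate (-1.42 ± 0.26, adjusted p = 0.00312). Cyp7a1, which catalyses the rate-limiting step from cholesterol to bile acids, was at 122 ± 71.1 CPM in Control, 40.3 in HFD and 123 ± 46.9 with fenofibrate, with a change from Control of 0.01 and a wide interval of -0.81 to 0.83.

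Amino acid breakdown was lower for part of its list. Of 33 genes of the urea cycle and of amino acid breakdown 8 were lower and 1 higher, and the median was -0.25 (-0.04 with total-count scaling) against -0.73 for HFD minus Control. The lower count was 5 without Control library 3 or fenofibrate library 1, 4 without fenofibrate library 3 or 4 and 4 without fenofibrate libraries 1 and 3. The higher call was lost without Control library 2 or 4 or fenofibrate library 3.

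Got1, the cytosolic aspartate aminotransferase, stood at 662 ± 134 CPM in Control, 123 ± 30.8 in HFD and 266 ± 78.1 with fenofibrate (-1.32 ± 0.23, adjusted p = 0.00253). Cth, which makes cysteine from cystathionine, was at 1223 ± 195, 412 ± 116 and 519 ± 144 CPM (-1.24 ± 0.21, adjusted p = 0.00216). Got1 in treated livers was above HFD (1.11, adjusted p = 0.00746) and still below Control. Oat, ornithine aminotransferase, was at 1250.0 ± 236 CPM in Control and 614 ± 105 with fenofibrate (-1.03 ± 0.17, adjusted p = 0.00174), and Aass, the first enzyme of lysine breakdown, at 634 ± 44.7 and 397 ± 76.2 CPM (-0.68 ± 0.13, adjusted p = 0.00579). The urea cycle gene Asl was at 1330 ± 131 CPM in Control, 359 ± 38.3 in HFD and 892 ± 197 with fenofibrate. Its difference from Control (-0.58 ± 0.15, adjusted p = 0.0246) missed the threshold without Control library 2 or fenofibrate library 1, 3 or 4, with total-count scaling and without fenofibrate libraries 1 and 3 (-0.63, adjusted p = 0.114).

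The zinc- and copper-binding metallothionein gene Mt1 (ENSMUSG00000031765, chromosome 8, 94179082 to 94180327) was at 354, 432, 218 and 271 CPM in Control and at 53.0, 133, 74.5 and 50.2 CPM with fenofibrate. HFD libraries held 7.66 to 11.4 CPM, so the treated libraries lay between the other groups with no overlap (-2.04 ± 0.28 against Control, adjusted p = 0.00052, and 2.98 against HFD, adjusted p = 8.6e-05). Asns, asparagine synthetase, was at 2.94 ± 1.28 CPM in Control, 0.583 ± 0.200 in HFD and 0.638 ± 0.311 with fenofibrate (-2.19 ± 0.38, adjusted p = 0.00245).

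Glucose handling had 3 of 25 genes higher and 3 lower, and 4 and 0 without fenofibrate libraries 1 and 3. Slc2a2, the glucose transporter of hepatocytes, stood at 204 ± 28.9 CPM in Control, 366 ± 23.5 in HFD and 366 ± 37.4 with fenofibrate (0.84 ± 0.11, adjusted p = 0.00051). Pklr, the liver pyruvate kinase, was at 60.2 ± 8.67, 150 ± 28.5 and 120 ± 15.2 CPM (0.99 ± 0.14, adjusted p = 0.00078), and Pcx, pyruvate carboxylase, at 508 ± 70.1, 660 ± 44.9 and 743 ± 62.5 CPM (0.55 ± 0.11, adjusted p = 0.00608). For all 3 the treated libraries were above every Control library. G6pc, the last enzyme of glucose release, was at 893 ± 321 CPM in Control and 334 ± 102 with fenofibrate (-1.42 ± 0.29, adjusted p = 0.00701), and without fenofibrate libraries 1 and 3 the change was -1.4 (adjusted p = 0.069).

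Major urinary proteins, pheromone carriers that male mouse liver secretes in quantity, were lower for part of the family. Of 19 Mup genes 7 were lower and 1 higher, and 17 had a negative change, with a median of -0.74 (-0.55 with total-count scaling) against 0.74 for HFD minus Control. The lower count was 4 without Control library 3 or 4 or fenofibrate library 1 or 3, 12 without fenofibrate library 2, and 3 without fenofibrate libraries 1 and 3. The share of all counts that fell on Mup genes was 1.80% ± 0.247 in Control livers, 2.89% ± 0.279 in HFD livers and 1.08% ± 0.363 in treated livers.

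Mup7 (ENSMUSG00000073842, chromosome 4, 60066469 to 60070475) was at 5109, 4406, 6446 and 6488 CPM in Control and at 577, 2715, 773 and 2338 CPM with fenofibrate. Fenofibrate libraries 1 and 3 were lowest, and all 4 were below every Control and HFD library (-1.81 ± 0.38, adjusted p = 0.00734). Without libraries 1 and 3 the change of Mup7 was smaller, at -1.14 (adjusted p = 0.00784). Mup1 (-2.26 ± 0.35) and Mup12 (-2.11 ± 0.33) had the same order of groups. Mup17 went the other way, at 39.7 ± 5.18 CPM in Control, 972 ± 271 in HFD and 103 ± 51.5 with fenofibrate (1.37 ± 0.29, adjusted p = 0.00879). The Mup genes are near-identical copies, so the share of each is uncertain.

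Male-biased liver genes, which follow the pulsed growth hormone of males, had 6 of 15 lower and 1 higher (median -0.35). With 1 library left out 3 were lower without fenofibrate library 3 and 2 were higher without Control library 1, and 3 were lower without fenofibrate libraries 1 and 3. Of 16 female-biased genes 8 passed the filter on low counts, and of those 3 were higher and 0 lower. By edgeR, 0 were lower at an unadjusted p under 0.05, and DESeq2 and limma-voom also called 3 higher and 0 lower. Of the 8, 5 changes were positive and 3 negative. A gene near 0 in Control could pass the filter only through a group where it was higher. The filter, shared by all 3 tools, thus partly fixed the balance of these counts in advance, and that balance is no support for a direction. All 12 libraries held the Y-linked Ddx3y at 36.4 to 52.9 CPM and Xist at 0.324 CPM or less.

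Ugt2b38 stood at 20.3 ± 3.41 CPM in Control, 20.7 ± 7.54 in HFD and 5.98 ± 1.17 with fenofibrate (-1.77 ± 0.22, adjusted p = 0.00031). Hsd3b5, a steroid dehydrogenase of male liver, was at 28.4 ± 4.25, 247 ± 49.4 and 85.4 ± 51.4 CPM (1.59 ± 0.33, adjusted p = 0.00811), and Cyp17a1, a steroid-hydroxylating P450, at 21.6 ± 7.6, 18.8 ± 10.6 and 61.8 ± 25.4 CPM (1.52 ± 0.37, adjusted p = 0.0175). Of 11 genes of growth hormone signalling 1 was higher and 3 lower. Bcl6, a repressor in male liver, was at 10.3 ± 3.06 CPM in Control and 35.7 ± 13.01 with fenofibrate (1.78 ± 0.36, adjusted p = 0.00637). The growth factor Igf1 was at 684 ± 53.1 and 424 ± 71.1 CPM (-0.69 ± 0.12, adjusted p = 0.0024), and without fenofibrate libraries 1 and 3 the change was -0.54 (adjusted p = 0.0596).

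Secreted plasma proteins were lower for part of the complement list. Of 27 complement genes 7 were lower and 1 higher, with 4 lower without Control library 2 or 4 or fenofibrate library 1 or 3, and 4 without fenofibrate libraries 1 and 3. The higher call was lost when any of 8 libraries was left out (Control 2, 3 or 4, HFD 2 or 4, or fenofibrate 1, 3 or 4). The median was -0.18, and 0.03 with total-count scaling, so its sign depends on the scaling.

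Among the lower members were genes of the membrane attack complex. C8a stood at 578 ± 44.5 CPM in Control, 569 ± 41.3 in HFD and 346 ± 20.2 with fenofibrate (-0.74 ± 0.10, adjusted p = 0.00035). C8b was at 341 ± 41.7, 260.0 ± 31.1 and 171 ± 26.7 CPM (-0.99 ± 0.13, adjusted p = 0.00036), and C9 at 452 ± 47.9, 573 ± 45.3 and 217 ± 54.8 CPM (-1.06 ± 0.16, adjusted p = 0.00086). For these 3 genes treated livers were below both other groups, with adjusted p against HFD of 0.00065, 0.00863 and 0.00024.

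Acute phase genes had 3 of 25 higher and 4 lower, 5 higher without Control library 1, and 1 higher without Control library 4 or without fenofibrate libraries 1 and 3. Hpx, the heme carrier hemopexin, was at 4565 ± 845 CPM in Control and 2755 ± 327 with fenofibrate (-0.73 ± 0.14, adjusted p = 0.00427). Hamp, the iron hormone hepcidin, stood at 1015 ± 85.3 CPM in Control, 503 ± 127 in HFD and 465 ± 42.4 with fenofibrate (-1.13 ± 0.16, adjusted p = 0.00073). Serpina3n, a protease inhibitor, was higher, at 447 ± 54.7, 455 ± 34.9 and 708 ± 92.8 CPM (0.66 ± 0.12, adjusted p = 0.00275). Serpina1e, one of several near-identical antitrypsin genes, was at 5701 ± 514 CPM in Control and 2086 ± 1115 with fenofibrate (-1.45 ± 0.28, adjusted p = 0.0044). In iron and heme handling 1 of 18 genes was higher and 4 lower, with the transferrin receptor Tfrc at 13.9 ± 2.60 and 7.22 ± 0.811 CPM (-0.95 ± 0.14, adjusted p = 0.00093) and the heme synthesis gene Cpox at 118 ± 16.8 and 176 ± 8.76 CPM (0.58 ± 0.10, adjusted p = 0.00237).

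Genes that mark the axis of the liver lobule differed in part. Of 13 pericentral genes 2 were higher and 4 lower, and 1 was lower without fenofibrate libraries 1 and 3. The median change of this list was -0.11, with 9 changes negative and 4 positive, so the higher genes given next do not stand for the list. Lgr5, a receptor that amplifies WNT signals, stood at 3.18 ± 0.580 CPM in Control, 7.17 ± 2.08 in HFD and 7.998 ± 0.485 with fenofibrate (1.33 ± 0.19, adjusted p = 0.00078), and Rnf43, a WNT target that dampens the pathway, at 16.7 ± 2.88, 19.9 ± 2.60 and 28.4 ± 3.02 CPM (0.76 ± 0.13, adjusted p = 0.00241). Of 14 periportal genes 6 were lower and 0 higher. By edgeR 0 were higher at an unadjusted p under 0.05 and by DESeq2 and limma-voom alike, and the lower count was 3 without Control library 1 or 3, 2 without fenofibrate library 1, 1 without fenofibrate library 3 or 4 and 1 without libraries 1 and 3 together.

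Ribosomal, respiratory chain and matrix lists had few calls with all libraries in the fit. Of 75 cytosolic ribosomal protein genes 0 were higher and 2 lower, and all 75 had a negative change with a median of -0.38 (-0.17 with total-count scaling). At an unadjusted p under 0.05 edgeR gave 0 higher and 50 lower, DESeq2 called 0 and 7 and limma-voom 0 and 0, and the lower count was 53 without Control library 1, 7 without fenofibrate library 2 and at most 1 without any other library. The 80 nuclear-encoded respiratory chain genes had 0 calls by edgeR in either direction, 2 higher and 14 lower at an unadjusted p under 0.05, 1 and 1 by DESeq2 and 0 by limma-voom, and 19 were lower without Control library 1, 5 were lower without fenofibrate library 2, and 1 was higher without Control library 3 or fenofibrate library 4. Genes of extracellular matrix and fibrosis had 0 calls among 24, with 1 higher and 1 lower at an unadjusted p under 0.05, 1 higher by DESeq2 and 0 by limma-voom, and 1 in each direction without Control library 1 or fenofibrate library 2. Of 12 mitochondrially encoded genes 5 were lower (41.7%), 3 without HFD library 2 or 4, 2 without Control library 2 or 4 or fenofibrate library 3 or 4, 1 without fenofibrate library 1 and 0 without fenofibrate libraries 1 and 3. Among these mt-Cytb was at 19560 CPM in Control, 17090 in HFD and 11810 with fenofibrate (-0.73 ± 0.15, adjusted p = 0.0081, and -0.55, adjusted p = 0.123, without those libraries).

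**Figure D5:**
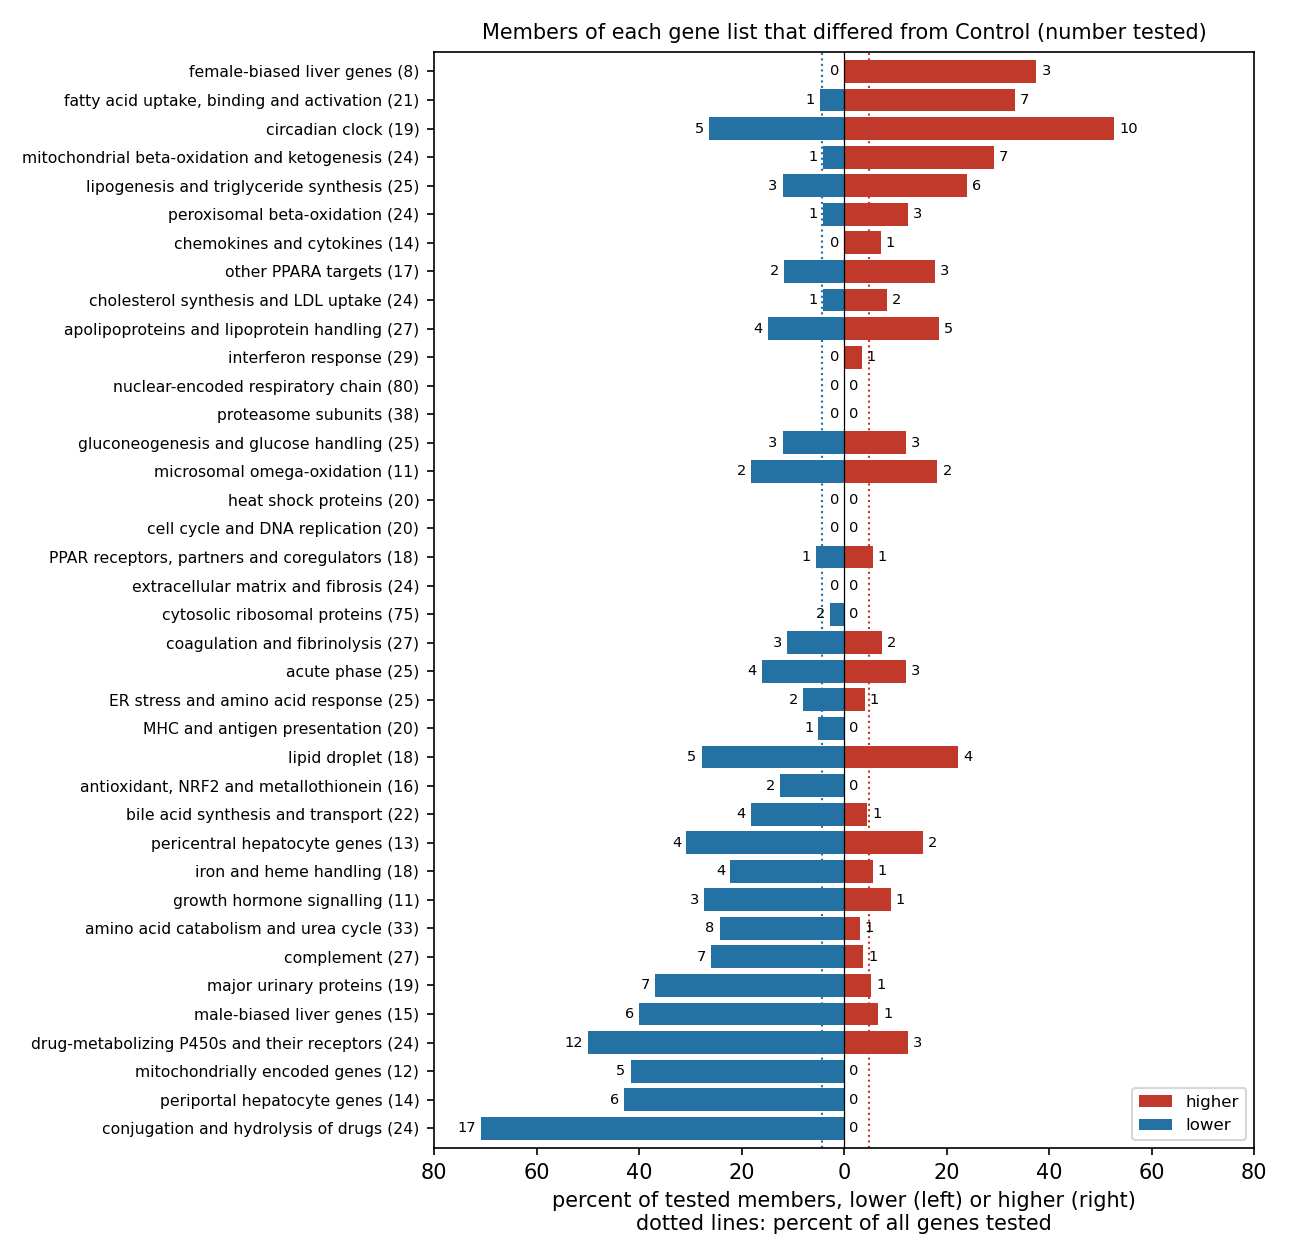
Percent of tested members of each list that were higher (red, to the right) or lower (blue, to the left) with fenofibrate than in Control, ordered by the balance of both. Conjugation and hydrolysis had 70.8% of members lower and the clock 52.6% higher, against 4.86% higher and 4.31% lower over all genes.

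The HFD level was set beside these differences by a pair of rules that do not exclude each other. The first took genes whose HFD libraries all stood on the same side of Control as the treated ones. Within the limits of 10 CPM and no overlap used above, the largest such differences among higher genes were Nr1d1, Rad51b, Rgs16, Cyp2a22, Dbp and Cyp2b9. Among lower genes they were Cyp2c55, Cyp3a11, Gsta2, Ugt1a9, Cib3 and Acmsd. Klhdc7a (ENSMUSG00000078234, chromosome 4, 139960220 to 139968026), another such gene, was at 4.22 to 4.92 CPM in Control, 17.3 to 28.7 CPM in HFD and 17.8 to 32.99 CPM with fenofibrate (2.54 ± 0.19, adjusted p = 2.6e-06). In Rad51b, a recombination gene, 1 Control library stood at 2.53 CPM and the others at 0.933 CPM or less, and the change of 4.06 was 5.03 without that library (Control 2). The second took genes that passed the test against both Control and HFD in the same direction. Within the same limits, those with the largest changes against Control were Zbtb16, Per3, Tpm2, Vldlr, Cyp2a22 and Cyp2b9 above. Below they were Cyp2c55, Ces2c, Mup1, Mup12, Mup7 and Ugt2b1. Other genes, such as Cd36 and Plin2, also passed both tests. Cyp2a22, Cyp2b9 and Cyp2c55 were listed under both rules. In Zbtb16, Per3 and Tpm2 the treated libraries overlapped the HFD ones, and in the other 9 they did not. Zbtb16, a transcription factor, was at 2.85 to 4.73 CPM in Control, 1.82 to 17.1 CPM in HFD and 15.8 to 28.4 CPM with fenofibrate (2.51 ± 0.51, adjusted p = 0.00653).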

How the data were processed

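Liver RNA-seq of 3 groups of 4 libraries was analysed. The authors deposited read counts per gene in a pair of tables, per the file headers; HISAT2 2.0.5, StringTie 1.3.2d and HTSeq 0.6.0 are named in the submitters' processing notes, and no source used here states the strand setting of the counting. The tables were joined on gene ID (22657 genes in both, 1389 only in the fenofibrate table, 1118 only in the diet table), with missing genes set to 0. HFD counts were identical in both tables, and 22 symbols that had turned into dates were restored. Of 25113 gene IDs, 92.5% had the same position as in a GRCm38 annotation, and positions are given as deposited. Promoter sequences are those of RefSeq on GRCm38.p6.

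Genes were kept by filterByExpr (13477 of 25164, holding 99.87% of counts), scaled by TMM and tested with edgeR 4.0.16 (quasi-likelihood, prior count 0.125, R 4.3.3) on all 12 libraries, with Benjamini-Hochberg adjustment over all genes tested. The common biological coefficient of variation was 0.155. The authors' own fold changes and calls were not used. DESeq2 1.42.0 and limma 3.58.1 (voom) were alternatives, along with other scalings, filters and thresholds, each library left out, and fenofibrate libraries 1 and 3 left out together. The edgeR fit was also run on simulated counts with planted changes. Replicate counts differed by more than sampling noise in every pair checked (chi-square per gene 16.8 to 42.2). CPM is not corrected for transcript length, so levels of different genes were not compared.

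Genes were named by rule. The rule took the 12 largest changes in each direction among genes at 10 CPM or more without overlap, and the 8 largest differences in CPM. It also took up to 4 called members of each list and a panel of PPARA targets. Last came the 6 largest changes in each direction that passed the test against both other groups, and the 6 largest that HFD shared. The comparison, the lists and the rule were chosen with earlier results of these data known. Values of some named genes are not reported here, although those genes entered every fit and count; they were left out of the search for libraries that stand apart.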

Additional observations from a re-analysis of the deposited data

Results flagged for a closer look

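In 16 of 326 groups of 4 libraries tested, 1 library stood apart from the other 3 by Dixon's 95% limit, which chance passes in about 1 of 20 groups. Control library 2 was high in Acaa1b (1236 CPM), Apoa5 (1434 CPM), Cyp4a31 (45.2 CPM) and Pdk4 (111 CPM). Control library 4 was low in Cyp4a32 (83.5 CPM) and Got1 (462 CPM), and high in Tfrc (17.8 CPM) and Cyp2b9 (0.498 CPM). Fn1 was high in Control library 1 (1526 CPM), and Hao2 was above 0 in Control library 3 alone (0.124 CPM).

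Fenofibrate library 1 was high in summed pancreatic acinar markers (2022 CPM) and summed neutrophil markers (10.2 CPM), and low in Atp5a1 (927 CPM). Fenofibrate library 2 was high in mt-Nd4 (8055 CPM) and library 4 in Fdft1 (101 CPM), and library 4 was low in Ugt1a9 (6.80 CPM). The calls of Got1, Tfrc, Cyp2b9, Apoa5, Fdft1 and Ugt1a9 passed at an adjusted p under 0.05 in every alternative run.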

How the results depend on the processing

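Counts of higher and lower genes (655 and 581) were 235 and 219 at an adjusted p under 0.01, 150 and 166 with a 2-fold minimum, and 2119 and 298 with total-count scaling. Without fenofibrate libraries 1 and 3 they were 215 and 158. With 1 library left out the higher count ran from 383 to 858 and the lower from 310 to 852. Other scalings, filters, DESeq2, limma-voom and a fit of the 8 libraries alone stayed within 1.5 times. Of 152 named genes 126 were called, 72 of them in every alternative, 54 were lost in some and 0 reversed. Depth limits genes with few reads, such as Cyp2b9 (13 reads over Control) and Mogat1.

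With the replicate number as a block, 570 genes were higher and 534 lower. The numbers did not pair the libraries: deviations of same-numbered libraries correlated at 0.0659 to 0.139, and 1 of 4 fenofibrate libraries correlated best with its own number.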

Other observations

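Interferon response genes had 1 of 29 higher (3.45%, below the 4.86% over all genes) and 0 lower by edgeR. At an unadjusted p under 0.05 edgeR gave 7 higher and 0 lower, DESeq2 called 5 and 0 and limma-voom 1 and 0. The higher count was 8 without Control library 3, 5 without fenofibrate library 2 and 0 or 1 without any other library. Markers of macrophages, including Kupffer cells, had 0 of 12 calls by edgeR, and 0 at an unadjusted p under 0.05 and by both other tools. Their sums overlapped, at 473 to 714 CPM in Control and 444 to 681 CPM with fenofibrate. Angptl8, an inhibitor of lipoprotein lipase made after feeding and named after its values were seen, was at 20.1 ± 3.95 CPM in Control, 56.4 ± 26.7 in HFD and 68.4 ± 43.5 with fenofibrate (1.77 ± 0.37, adjusted p = 0.00743).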
